A study of Homo sapiens with 6 samples.

Results

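Clathrin-mediated endocytosis is the route by which cells take up receptors and their cargo in coated vesicles. Clathrin heavy and light chains build the cage, the AP2 complex and PICALM link it to the membrane and its lipids, intersectins and the EPS15 family act as scaffolds at the forming pit, and dynamin cuts the neck of the vesicle. Several of these genes carry short alternative exons that change the protein without removing it, some of them used mainly in neurons. Cassette exons of 10 genes of this machinery were examined: the clathrin chains CLTA, CLTB and CLTC, the adaptors PICALM and AP2B1, the scaffolds ITSN1, ITSN2 and EPS15L1, the dynamin DNM2 and the dynamin-related DNM1L. All rows of the deposited splicing table with one of these gene symbols were taken. They came to 49 events in 9 genes, of 24725 events in the table, and DNM2 had 0 rows. DNM1L acts in the division of mitochondria and peroxisomes rather than in endocytosis, so the gene list is wider than the coat itself.

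RNA-seq had been carried out on MDA231-BrM2a cells, a brain-metastatic derivative of the human breast cancer line MDA-MB-231. The 3 Control libraries came from non-clonal cells with the empty vector pRetroX-Tight-Pur. The 3 RBM47 libraries came from 1 clonal line, wt#10, in which the same vector carried Flag-tagged wild-type RBM47, an RNA-binding protein, under a doxycycline-inducible promoter. Both groups received doxycycline at 10 ng/ml for 3 days, so the drug was common to all samples, whereas the transgene and the clonal origin of the line cannot be told apart. The labels call the samples replicates without naming separate cultures. A p-value from the values of single samples therefore measures only the spread between these libraries, and one from reads pooled per group does not measure it. RBM47 itself had 0 rows in the table, so its induction was not checked here.

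For each cassette exon the table gave an inclusion rate in each sample, that is, the fraction of transcripts at that junction that include the exon, and the reads that include or skip it summed over the 3 samples of a group. Depth per sample is therefore unknown. Summed junction reads came to 26498401 in Control and 24116982 in RBM47. Across all events the samples correlated with each other at r = 0.953 to 0.974. Among the 5998 events with a mean rate of 0.1 to 0.9, RBM47 replicate 2 stood apart by a larger share of rates equal to 0 or 1. This share was 14.8%, where the remaining libraries had 6.07 to 7.64%. In 5.63% of rows the rates did not average to the group averages printed beside them. Such rates were matched again by those averages, which concerned 8 of the 49 events: 7 were matched by both averages and 1, the PICALM exon described next, by the RBM47 average alone.

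Some of the short exons whose values are described below are shown here from the GRCh37 genome, on the strand of the gene, 5′ to 3′. The exon is in capitals, with 40 intronic bases before it and 20 after it in lower case. Each was found by matching the gene and the outer span of the event to annotated exons of GRCh37 (GENCODE), since the build of the table's own coordinates is not given in the sources used here. All lie in coding sequence, and each exon has a length divisible by 3, so that including it keeps the reading frame. The first pair, from PICALM, consists of neighbouring exons of 24 bases (chr11:85689113-85689136, minus strand) and 60 bases (chr11:85687666-85687725, minus strand).
PICALM 24-base exon: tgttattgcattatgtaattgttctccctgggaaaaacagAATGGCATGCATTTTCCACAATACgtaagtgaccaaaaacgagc
PICALM 60-base exon: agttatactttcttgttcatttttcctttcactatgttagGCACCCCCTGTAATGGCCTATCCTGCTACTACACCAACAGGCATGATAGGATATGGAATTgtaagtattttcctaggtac
The clathrin chains are represented by the 21-base exon of CLTC (chr17:57764362-57764382, plus strand) and by the adjacent exons of 54 bases (chr9:36209264-36209317, plus strand) and 36 bases (chr9:36210622-36210657, plus strand) of CLTA.
CLTC 21-base exon: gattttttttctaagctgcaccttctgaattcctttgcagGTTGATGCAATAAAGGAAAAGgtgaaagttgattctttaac
CLTA 54-base exon: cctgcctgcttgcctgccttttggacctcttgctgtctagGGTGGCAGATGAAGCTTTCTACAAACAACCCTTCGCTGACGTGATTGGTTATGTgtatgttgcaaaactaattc
CLTA 36-base exon: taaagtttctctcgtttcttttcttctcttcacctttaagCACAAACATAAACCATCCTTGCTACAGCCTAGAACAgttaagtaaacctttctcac
The remaining sequences are the adjacent exons of 78 bases (chr12:32890799-32890876, plus strand) and 33 bases (chr12:32891198-32891230, plus strand) of DNM1L, the first of them 1 of 2 annotated candidates for its event, and the 42-base exon of AP2B1 (chr17:33997876-33997917, plus strand).
DNM1L 78-base exon: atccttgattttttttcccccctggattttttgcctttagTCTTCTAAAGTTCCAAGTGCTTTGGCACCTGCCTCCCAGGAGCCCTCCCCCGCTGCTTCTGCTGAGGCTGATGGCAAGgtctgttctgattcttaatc
DNM1L 33-base exon: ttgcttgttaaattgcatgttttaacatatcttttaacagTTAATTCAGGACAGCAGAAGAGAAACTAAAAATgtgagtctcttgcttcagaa
AP2B1 42-base exon: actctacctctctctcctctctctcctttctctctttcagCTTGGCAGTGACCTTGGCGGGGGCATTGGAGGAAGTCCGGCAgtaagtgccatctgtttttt

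PICALM, which binds membrane phosphoinositides and clathrin and sets the size of coated vesicles, held the 1 event of the 49 that passed the tests. Inclusion of its 24-base exon rose in RBM47 cells. In the Control samples the inclusion rates were 0.684, 0.705 and 0.654, and in the RBM47 samples they were 0.890, 0.889 and 0.897. Every RBM47 sample thus lay above every Control sample, by much more than the spread within either group. The mean went from 0.681 ± 0.026 to 0.892 ± 0.004 (SD, n = 3 each), a difference of 0.211. In Control the exon was included in 1057 reads and skipped in 224, and in RBM47 it was included in 1778 and skipped in 106, so that skipping reads were fewer and including reads more numerous. With including reads divided by 2, since inclusion has 2 junctions and skipping 1, those totals gave a difference of 0.191, below the limit of 0.2 used next. Fisher's exact test on the totals, two-sided, gave p = 2.54e-26, but it works on pooled reads and is blind to the spread between samples. The limma test on the transformed rates (arcsine square root), which takes that spread into account, gave an adjusted p of 0.00145. In the whole table, the study criteria (Fisher p at most 0.05, a difference of at least 0.2 and at least 10 reads) were met by 0.607% of events in the direction of more inclusion in RBM47 cells and by 0.793% in the direction of less. Of the 49 member events, 1 was higher and 0 were lower. These calls came largely from the rows matched by the RBM47 average alone, to which the PICALM exon belongs: all 251 such rows met the criteria, against 76 of 23333 rows aligned as deposited. The replicate-level criteria (a limma adjusted p below 0.05 together with a minimum difference of 0.2, applied to events whose mean rate lay from 0.1 to 0.9) were met by 0.750% and 0.784% of tested events in these directions. Of the 15 member events tested in this way, 1 was higher, the same exon, and 0 were lower. A count of 1 in each test says little about the gene list as a whole. The exon lies close to the threshold of 0.2: without Control replicate 3 the difference was 0.197, which misses it, although limma still gave an adjusted p of 0.0156. Without the variance trend on reads, limma gave an adjusted p of 0.0606. Leaving out RBM47 replicate 2, the library that stood apart, gave an adjusted p of 0.0133. The event is also not counted when only rows aligned as deposited are used, since its rates were matched by the RBM47 average alone. This matching set aside the printed Control average, and with both printed averages the difference is 0.114. The direction of the read totals, which took no part in the matching, was the same.

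The neighbouring PICALM events moved the same way by smaller amounts. Inclusion rates of the 60-base exon were 0.647, 0.748 and 0.714 in Control and 0.855, 0.851 and 0.751 in RBM47. The groups did not overlap, but RBM47 replicate 3 lay only just above the highest Control sample. The difference was 0.116, with 1245 reads for inclusion and 249 for skipping in Control, and 1316 and 152 in the RBM47 libraries. Fisher's exact test gave p = 5.38e-07, and limma gave an adjusted p of 0.216, so the change did not pass once the spread between samples and the number of events were taken into account. Another, wider event had the same upstream outer end and no single annotated exon of matching span. Its rates were 0.814, 0.807 and 0.866 in Control and 0.874, 0.926 and 0.870 in RBM47, a difference of 0.061 (limma adjusted p = 0.363). The ranges were separated by a narrow gap here too. These 3 events are not independent observations. They start from the same upstream exon, and the junction that skips the 24-base exon is one of the junctions that include the 60-base exon.

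**Figure D1:**
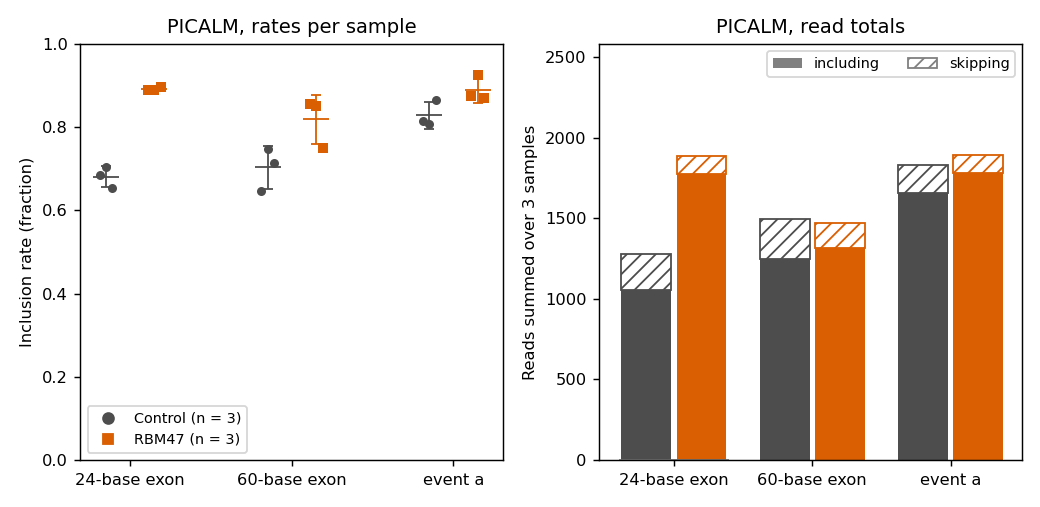
Inclusion of 3 PICALM cassette exon events that share their upstream exon. The left plot shows the inclusion rate (fraction) in each of 3 Control and 3 RBM47 samples with mean and SD, and the right plot shows including (filled) and skipping (hatched) reads summed over the samples of a group. "Event a" is the wider event with no single matching annotated exon. For the 24-base exon the 3 RBM47 samples sit at 0.889 to 0.897 and the 3 Control samples at 0.654 to 0.705.

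Elsewhere in PICALM, inclusion differed little. A 76-base coding exon nearer the 5′ end (chr11:85737334-85737409, minus strand) was almost always included. Its rates were 0.984, 0.974 and 0.967 in Control and 0.992, 0.988 and 0.997 in RBM47, with no overlap between the groups, and skipping reads numbered 29 and 6. At the other extreme stood 2 events with common outer ends, whose candidate exons of 129 and 150 bases share one boundary. Rates of the first were 0.110, 0.118 and 0.0888 in Control and 0.0779, 0.0848 and 0.0769 in RBM47. Rates of the second were 0.189, 0.172 and 0.123 in Control and 0.124, 0.164 and 0.117 in RBM47. The differences were -0.0257 and -0.0264, and for the second event the groups overlapped. The 3 remaining PICALM events had differences between -0.0035 and 0.0054.

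DNM1L, the GTPase that constricts mitochondria and peroxisomes, had the largest number of events, 14, and the largest lower difference. The 2 rows concerned span the region that holds the 78-base and 33-base exons. They have the same outer ends and the same skipping totals, 246 in Control and 259 in RBM47, and the table does not say which exon each row describes. In the first row the rates were 0.581, 0.447 and 0.498 in Control and 0.441, 0.333 and 0.429 in RBM47. The highest RBM47 sample lay just below the lowest Control sample. The difference was -0.108, with 553 including reads in Control and 394 in RBM47. Fisher's exact test gave p = 0.00048, and limma gave an adjusted p of 0.415. In the second row the rates were 0.235, 0.224 and 0.297 in Control and 0.155, 0.238 and 0.222 in RBM47, a difference of -0.0467 with overlapping groups (limma adjusted p = 0.692). When the 33-base exon was scored in transcripts that already contained the exon before it, its rates were 0.170, 0.354 and 0.309 in Control and 0.270, 0.431 and 0.373 in RBM47. This difference had the opposite sign, 0.0806, and the groups overlapped (limma adjusted p = 0.661). When the exon before it, of 78 or 189 bases, was scored in transcripts that contained the 33-base exon, the difference was -0.0082. The other 10 DNM1L events lay at the extremes. For 5 of them the exon was nearly always included and for 5 almost never, with differences from -0.0079 to 0.0117.

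Clathrin heavy chain, CLTC, forms the legs of the triskelion. Its 21-base exon was rarely included in either group, with the lower rates in RBM47. The rates were 0.0595, 0.0513 and 0.0521 in Control and 0.0073, 0.0218 and 0.0298 in RBM47. Every RBM47 sample lay below every Control sample, and the RBM47 samples differed from each other by more than the Control samples did. Including reads numbered 483 against 4148 skipping reads in Control, and 127 against 3181 in RBM47. Fisher's exact test gave p = 1.59e-29, with a difference of -0.0347. The mean rate is under 0.1, so that the event was not among those tested with limma and does not meet the rule for events to be described. It was chosen after its values were seen. The CLTC event nearest the 5′ end had a rate of 1 in every sample, on 4103 and 1676 including reads. A 143-base exon was nearly absent, with rates of 0, 0 and 0.0034 in Control and 0, 0 and 0.0033 in RBM47.

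The clathrin light chains, CLTA and CLTB, bind the heavy chain and are the parts of the coat with inserts known from neurons. In these cells the CLTA inserts were nearly absent. The 2 rows that span both exons had rates of 0.0035 to 0.0101 in Control and 0.0013 to 0.0096 in RBM47, on 6365 and 7417 skipping reads. In the first row the groups did not overlap, at 0.0035, 0.0048 and 0.0039 against 0.0013, 0.0024 and 0.0029, a difference of -0.0019. Among the few transcripts that contained the 36-base exon, the 54-base exon was usually present as well. Its rates were 0.545, 0.621 and 0.628 in Control and 0.692, 0.583 and 0.686 in RBM47, a difference of 0.0558 with overlapping groups (limma adjusted p = 0.819). Conversely, the 36-base exon had rates of 0.667, 1 and 0.8 in Control and 1, 1 and 0.5 in RBM47 in transcripts that contained the 54-base exon. Only 3 and 2 skipping reads stand behind these values, and no difference was detectable at that depth. CLTB had 2 events. The first had rates of 0.0046, 0.0022 and 0.0020 in Control and 0.0031, 0.0057 and 0.0064 in RBM47, on 5664 and 5510 skipping reads. In the second, at a partly coding exon of 552 bases, the rates were 0.0217, 0.0154 and 0.0297 in Control and 0.0085, 0.0058 and 0.0132 in RBM47, without overlap. The totals of this event gave a larger difference, -0.0648, than the rates did, -0.0131. The including totals thus hold reads that do not enter the rates, and the size of the difference depends on which is used.

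AP2B1 encodes the large beta subunit of the AP2 complex, which binds clathrin. Its 42-base exon was included almost always, with rates of 0.930, 0.977 and 0.986 in Control and 0.984, 0.980 and 1 in RBM47. Skipping reads numbered 22 in Control and 3 in RBM47. The one AP2B1 event of intermediate inclusion matched no single annotated exon. Its rates were 0.152, 0.153 and 0.128 in Control and 0.185, 0.224 and 0.143 in RBM47, a difference of 0.0399 (limma adjusted p = 0.631). The groups overlapped, with RBM47 replicate 3 between the Control samples. An event near the 5′ end had rates of 0.0257, 0.0040 and 0.0086 in Control and 0 in each RBM47 sample, on 27 and 0 including reads. The 2 remaining events were at a rate of 1 in every sample and at 0.0063 to 0.0221.

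ITSN1, ITSN2 and EPS15L1 are scaffold proteins with EPS15 homology domains, which gather adaptors at the pit. Only 1 event of EPS15L1 was listed. Its rates were 0.613, 0.674 and 0.676 in Control and 0.564, 0.561 and 0.704 in RBM47, a difference of -0.0447 (limma adjusted p = 0.778). Although 2 RBM47 samples lay below all Control samples, the third lay above them. ITSN1 was shallow, with 115 to 732 reads per event. Its 167-base exon (chr21:35195791-35195957, plus strand) had rates of 0.859, 0.884 and 0.855 in Control and 0.818, 0.892 and 1 in RBM47, a difference of 0.0373 (limma adjusted p = 0.715). An event spanning this exon and the next ones had rates of 0.421, 0.333 and 0.529 in Control and 0.524, 0.619 and 0.313 in RBM47. The 83-base exon had rates of 0.0435, 0.378 and 0.314 in Control and 0.171, 0.290 and 0.333 in RBM47. The rates gave a difference of 0.0196 for it and the totals one of -0.119, so that its direction is not settled. The groups overlapped in each of these 3 ITSN1 events. ITSN2, with 84 to 373 reads per event, had no event of intermediate inclusion. A 32-base, partly coding exon had rates of 0 in each Control sample and 0.123, 0 and 0.163 in RBM47. The rate was thus above 0 in 2 of 3 RBM47 samples. RBM47 replicate 2 is the library with the larger share of rates at 0 or 1, measured in events of intermediate rate, to which this exon does not belong. The exon was included in 7 reads and skipped in 78 in Control, and included in 24 and skipped in 61 in RBM47 (Fisher's exact test p = 0.00121), and the 7 Control reads stand although all Control rates are 0, so a rate of 0 does not mean that no read included the exon. A 75-base coding exon of ITSN2 (chr2:24531747-24531821, minus strand) had a rate of 0 in all 6 samples, with the exon included in 2 reads and skipped in 62 in Control, and included in 0 and skipped in 20 in RBM47. The other 3 ITSN2 events had differences between -0.0047 and 0.0125.

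**Figure D2:**
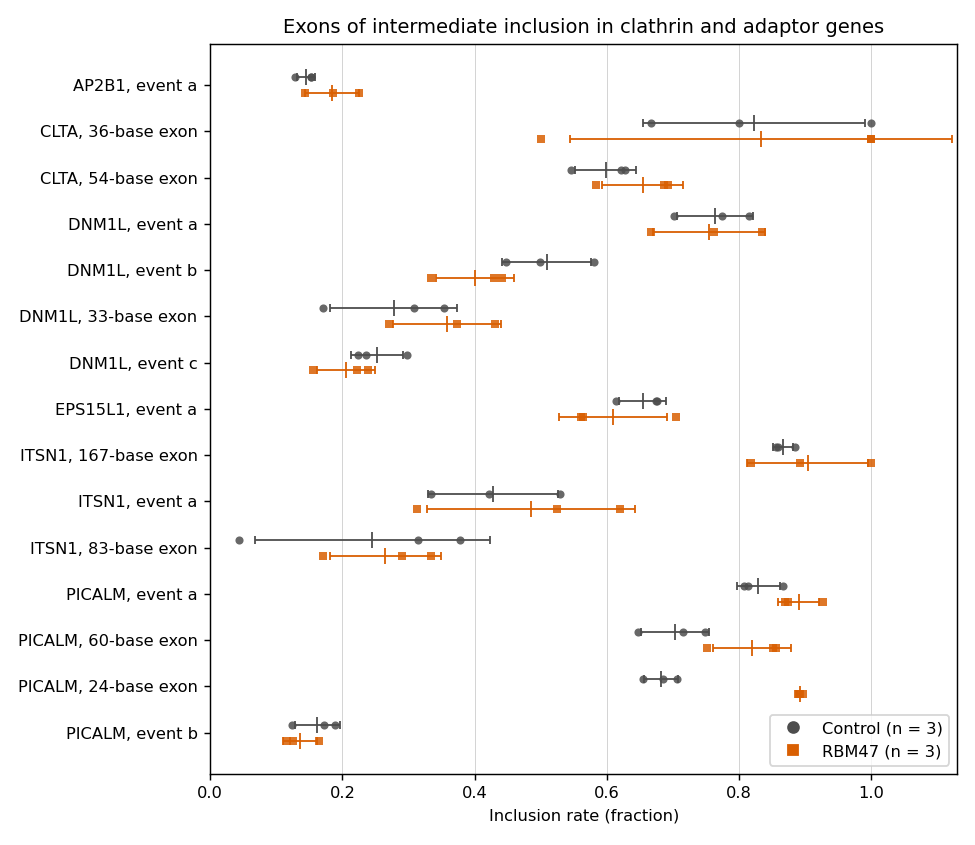
Inclusion rate (fraction) of the 15 member events with a mean rate of 0.1 to 0.9. Points are samples, vertical ticks the group means and horizontal bars the SD (Control n = 3, RBM47 n = 3), and an SD bar can pass 1 although no rate does. Events without a single matching annotated exon have letters: DNM1L event a is the 78-base or 189-base exon before the 33-base exon, and DNM1L events b and c are the 2 rows with common outer ends. The 24-base exon of PICALM is the one with the widest gap between the groups.

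Most of the 49 events differed little in mean inclusion rate. The absolute difference in mean inclusion was under 0.05 in 41 events and at least 0.1 in 3, which is 6.12% of the members against 8.78% of the whole table. The median absolute difference was 0.0111 in the members and 0.0114 in the table. For events of intermediate mean rate (0.1 to 0.9) it was 0.0467 in the 15 members and 0.0597 in the table. These 15 made up 30.6% of the member events, against 24.3% of all events. A further 19 member events had a mean rate under 0.1 and 15 one over 0.9. Of the extreme events, 4 had a rate of 1 in every sample and 1 a rate of 0. The groups did not overlap in 4 member events that were higher and 6 that were lower in RBM47, where the background was 4.67% and 5.25% of all events. All 4 of the higher ones were in PICALM, 3 of them the events that share an upstream exon. The 6 lower ones were spread over AP2B1, CLTA, CLTB, CLTC, DNM1L and PICALM.

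With the looser limit of a difference of at least 0.1 and a Fisher p of at most 0.05, 2 member events were higher and 1 lower, against a background of 1.61% and 1.99%. These were both short PICALM exons and the first of the paired DNM1L rows. A Fisher p of at most 0.05 with no limit on the difference was reached by 13 of the 49 events, where 14.4% of all events reached it. Member events also had more reads, with a median of 1452 per event and a range of 84 to 14058, against a median of 665 in the table. This test passes smaller differences where there are more reads, and whether that bears on the count of 13 was not tested. In limma, 4 of the 15 tested member events had an unadjusted p under 0.05, where 12.0% of all tested events did. They were the 3 nested PICALM events and the first DNM1L row, and 3 of these share reads.

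**Figure D3:**
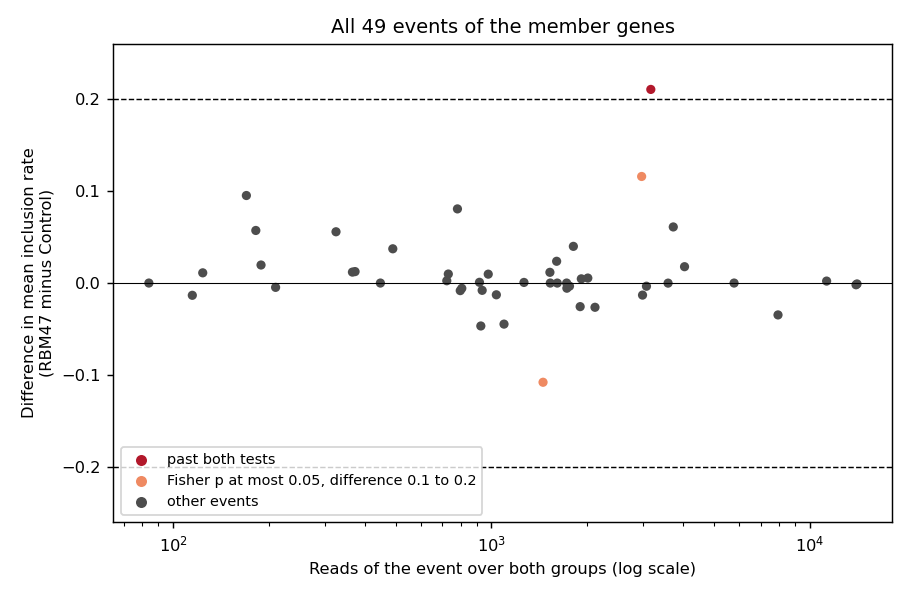
Difference in mean inclusion rate (RBM47 minus Control) against the reads of the event summed over both groups, on a log axis, for all 49 member events. Dashed lines mark the limit of 0.2, which 1 event of PICALM passes at 0.211. The differences of the most deeply read events, those of CLTA and CLTB, lie near 0.

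By exon structure, 30 of the 49 events could be assigned to 1 annotated exon of GRCh37, which gave 29 different exons. Of these, 15 had a length divisible by 3. The share was 46.6% in the 8507 events of the table with an exon found between annotated neighbours in 1 transcript. The member count is of different exons and includes some found between exons of different transcripts, so the sets are not alike. The share of T in the 100 bases before the exon, part of which is the polypyrimidine tract that marks an acceptor site, was 40% for the PICALM 24-base exon and 42% for the 60-base exon. For the CLTC exon it was 45%, for the DNM1L 78-base exon 43% and for the AP2B1 exon 37%. The median over those 8507 events was 35%, with 18% at the 5th and 49% at the 95th percentile. None of these exons stood outside those percentiles. In the 100 bases after the exon the share was 32% and 39% for the PICALM exons and 41% for the CLTC exon, against a median of 31% and 5th and 95th percentiles of 16% and 46%. The CLTA 54-base exon, with 49% after it, lay above that range. Among assigned member exons whose sequences are not shown, the ITSN2 81-base exon (56%) and the ITSN1 161-base exon (48%) lay above it too. In the bases before the exon, the DNM1L 121-base exon, at 51%, lay above the 95th percentile.

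Reads at the most deeply read event of a gene gave a rough measure of its transcript level. As group totals they have no replicate error and were not tested. The RBM47 to Control ratio was 1.16 for CLTA and 0.977 for CLTB. It was 0.877 for ITSN1, 0.794 for PICALM, 0.763 for EPS15L1, 0.735 for DNM1L and 0.714 for CLTC, and the lowest were AP2B1 at 0.583 and ITSN2 at 0.480. The median over 6750 genes was 0.869, and the 5th and 95th percentiles were 0.393 and 1.44. All 9 genes therefore lay within the range of the table. In bulk RNA, fewer cells with a transcript and less of it per cell cannot be told apart. The ratio also depended on the place in the gene, as the reads at the first and the last event show. It was 0.342 at the first event of AP2B1 and 0.583 at the last, 0.408 and 0.714 in CLTC, and 0.480 and 0.710 in ITSN2. In PICALM it was 0.730 at the first and 1.03 at the last event. It was higher at the 3′ end in 6 of the 7 member genes that could be compared, CLTB being the exception at 0.982 and 0.977. The same held for 1799 of 2574 genes of the table, 69.9%, with medians of 0.801 at the first and 0.885 at the last event. Inclusion rates compare reads at one place in the gene, and whether this shift along the genes bears on them was not tested.

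**Figure D4:**
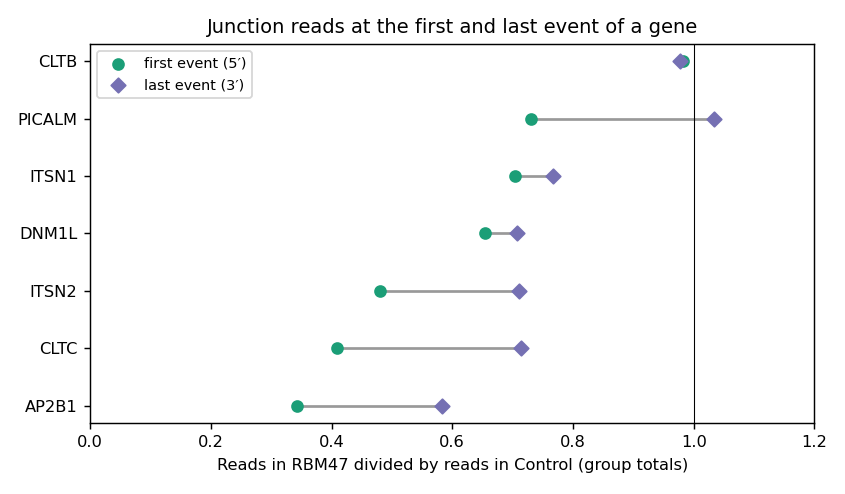
Ratio of summed junction reads in RBM47 to those in Control at the first (5′, circles) and last (3′, diamonds) event of 7 member genes, without error bars because only group totals were given. The ratio is higher at the last event in 6 of the 7, from 0.342 to 0.583 in AP2B1 and from 0.730 to 1.03 in PICALM.

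Other genes of clathrin-mediated uptake, adaptors, membrane-bending proteins, lipid kinases and uncoating factors, were read from a list of 71 genes, of which 54 were present with 199 events. By the study criteria 1 of these events was higher and 3 were lower in RBM47, where the whole table had 0.607% and 0.793%. By the replicate-level criteria 0 of the 38 tested events were higher and 2 were lower, where the whole table had 0.750% and 0.784% of tested events. The lower events by limma were in REPS1, a protein with an EPS15 homology domain, and in DAB2, a cargo adaptor for receptors of the LDL receptor family. The REPS1 rows have common outer ends and the same skipping totals, 73 in Control and 152 in RBM47, so they are not independent. An 81-base coding exon is the candidate for both, and the table does not say which row describes it. Rates in the first row were 0.780, 0.765 and 0.802 in Control and 0.336, 0.432 and 0.484 in RBM47, a difference of -0.365 (limma adjusted p = 0.0044). The groups were far apart. In the second row the difference was -0.317, and limma gave an adjusted p of 0.0539. The DAB2 exon of 654 bases was at 1 in each Control sample and at 0.752, 0.542 and 0.407 in RBM47, a difference of -0.433 (limma adjusted p = 0.00199). The DAB2 totals, 922 including and 0 skipping reads against 538 and 59, gave a smaller difference of -0.180, and the printed averages gave one of the opposite sign, 0.0512. PIP5K1C, a kinase that makes the phosphoinositide to which AP2 and PICALM bind, was higher by the study criteria, with rates of 0.167, 0.04 and 0.0882 in Control and 0.158, 0.5 and 0.415 in RBM47. Its groups overlapped, limma gave an adjusted p of 0.377, and the printed averages gave a difference of -0.198. With all mean rates tested, limma gave adjusted p-values of 0.0684 for the first REPS1 row and 0.112 for DAB2. AP2M1, the cargo-binding subunit that joins AP2B1 in the AP2 complex, had an event with rates of 0.281, 0.292 and 0.287 in Control and 0.399, 0.412 and 0.408 in RBM47. The difference of 0.120 was many times the spread within either group (limma adjusted p = 0.0234) and below the limit of 0.2, and this adjusted p ranged from 0.0700 to 0.111 when 1 sample was left out.

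For DNM1L, a list of 11 genes of mitochondrial division and fusion served as the neighbourhood, with 46 events in 9 genes present. At replicate level 23 of these events were tested. By each set of criteria 0 events were higher and 1 was lower. In the whole table the shares were 0.607% and 0.793% by the study criteria and 0.750% and 0.784% at replicate level. The lower event was in INF2, a formin that assembles actin at the site of mitochondrial constriction. The rates of its 57-base exon were 0.708, 0.880 and 0.796 in Control and 0.368, 0.383 and 0.495 in RBM47, a difference of -0.379 (limma adjusted p = 0.0102). Every RBM47 sample lay below every Control sample, but the call depended on single libraries. The adjusted p was 0.0543 and 0.0707 without Control replicate 2 or 3, and 0.0844 and 0.0868 without RBM47 replicate 1 or 2. With no trend on reads it was 0.105, and with every mean rate tested 0.188. The events of REPS1, DAB2, PIP5K1C and INF2 were matched by the RBM47 average alone, as the PICALM 24-base exon was.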

How the data were processed

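RNA was selected for polyA and sequenced after TruSeq preparation. Per the labels, the submitters' processing notes name TopHat, and its version and the build of the table's coordinates are not given in the sources used here. The authors deposited 1 table with, per cassette exon, the inclusion rate of each sample and group averages (both as a fraction from 0 to 1), and including and skipping reads summed per group, which are other values than counts per sample. Columns with the authors' own difference, odds ratio and Fisher p-value were not used.

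Rows whose rates did not average to their own averages (tolerance 3e-09) were matched to the rates of another row by both averages (1122 rows) or the RBM47 average alone (251 rows), and 19 rows were left out (12 with several matches and 7 with none), which left 24706 events. In the events that met the study criteria, the sign was that of the read totals in 76 of 76 aligned rows, 19 of 19 matched by both averages and 251 of 251 matched by one, which are all rows of that kind. Fisher's exact test (scipy 1.17.1) used the totals. limma 3.58.1 (R 4.3.3) was run on rates after an arcsine square root transformation, letting the variance follow log2 reads, in 5998 events with a mean rate of 0.1 to 0.9, with Benjamini-Hochberg adjustment over all of them. It was also run on simulated rates with equal depth in all samples, which does not vouch for single calls in these data. Intervals for single samples need counts per sample and are not given.

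Member genes and gene lists were chosen with earlier results of these data known. Described events were those past either test, with limma adjusted p under 0.05, or with Fisher p at most 0.05 and a difference of at least 0.1, and per gene the most-read event of intermediate rate or else the one with the lowest rate. Events named beyond this rule were chosen after their values were seen. Replicate numbers did not pair the samples (correlation of deviations -0.0222, -0.0056 and 0.0142).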

Additional observations from a re-analysis of the deposited data

How the results depend on the processing

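The number of member events higher in RBM47 by the study criteria, 1, became 2 with a minimum difference of 0.1 and 0 with 0.3, with rates from summed reads, with only rows aligned as deposited and with the authors' printed averages, and was 0 to 1 when single samples were left out (0 without Control replicate 3). The number lower, 0, became 1 with a minimum difference of 0.1. By the replicate-level criteria the number higher, 1, became 0 without the trend on reads (PICALM 24-base exon, limma adjusted p = 0.0606, with 0.00107 to 0.0606 over all alternatives) and with only aligned rows, and was 0 to 1 over left-out samples (again 0 without Control replicate 3). With the replicate number as a block it was 1, and the block changed no call of a member, though it gave AP2M1 an adjusted p of 0.0652.

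Among the other endocytic genes, the number higher by the study criteria, 1, became 2 with a minimum difference of 0.1 and 0 with 0.3, with only aligned rows and with the authors' averages, and was 0 to 1 over left-out samples (0 without RBM47 replicate 2). The number lower, 3, became 8 with 0.1 and 0 with only aligned rows. By the replicate-level criteria the number higher, 0, became 1 with a minimum of 0.1 and with no minimum, and the number lower, 2, became 0 with all mean rates tested and with only aligned rows. In the mitochondrial list, the 1 lower event by the replicate-level criteria became 0 without the trend, with all mean rates, with only aligned rows, and without Control replicate 2 or 3 or RBM47 replicate 1 or 2. With the authors' printed averages the differences of DAB2 and PIP5K1C reversed, to 0.0512 and -0.198 (the Control averages of these rows were set aside in the matching). The cause of these changes was not tested, other than that aligned rows leave out each called event by construction. Over the events described, 127 differences under an alternative were classed as unchanged, 3 as moved in size and 4 as below their threshold. The 2 classed as reversed were those of DAB2 and PIP5K1C. The unchanged class did not require the same sign. It holds the ITSN1 167-base exon, which went from 0.0373 to -0.0111 without RBM47 replicate 3. It also holds the CLTC 143-base exon, which went from -2.25e-05 to 0.000467 with rates from summed reads. Of the adjusted p-values, 154 stayed on their side of 0.05, 18 lost the call and 1 gained it. Only group totals of reads were given, so depth limits shallow events such as those of ITSN1 and ITSN2 to a degree that cannot be stated per sample.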
